A study of Mus musculus with 18 samples.

Results

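The genes described here encode enzymes that make eicosanoids and receptors that bind eicosanoids and related lipids: Alox5, Alox5ap, Hpgds, Ptger4, Ptgir, Ptgdr2, Cysltr1 and Gpr132. All 8 symbols were found among the 24781 gene entries of a count table of mouse group 2 innate lymphoid cells (ILC2), tissue lymphocytes without rearranged antigen receptors that release type 2 cytokines. The 18 RNA sequencing libraries fell into 6 groups of 3, formed from 3 cell populations and 2 genotypes. The populations were Mature ILC2 from bone marrow, Immature ILC2 (ILC2P) from bone marrow and Lung ILC2, each sorted by flow cytometry. The genotypes were CD45 KO x Rag2 KO, called CD45 KO below, and Rag2 KO, called control below. Every mouse was therefore without Rag2, a gene needed to make T and B cells, and the controls were not wild type at that gene although their titles carry WT. CD45 is a receptor tyrosine phosphatase of white blood cells encoded by Ptprc. The labels give neither age, sex nor strain, leave the deleted stretch of Ptprc unnamed, and do not say whether the 3 libraries of a group came from separate mice. The p-values below therefore measure only the spread between these libraries, which may be technical. The labels put the number of sorted cells at 200, whereas their protocol mentions 100 cells in each tube.

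Eicosanoids are short-range lipid signals made from arachidonic acid. Arachidonate 5-lipoxygenase (Alox5), aided by its activating protein (Alox5ap), starts the leukotriene branch, whereas cyclooxygenases start the prostanoid branch, in which the haematopoietic prostaglandin D synthase (Hpgds) makes prostaglandin D2. The receptors span the membrane and signal through G proteins. EP4 (Ptger4) binds prostaglandin E2, IP (Ptgir) binds prostacyclin, CRTH2 (Ptgdr2) binds prostaglandin D2, and CysLT1 (Cysltr1) binds cysteinyl leukotrienes. The receptor encoded by Gpr132 has been reported to respond to lysolipids and oxidised fatty acids. In ILC2, cysteinyl leukotrienes and prostaglandin D2 are known to stimulate type 2 cytokine production, while prostaglandin E2 and prostacyclin are known to restrain it.

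On the mm10 build with the GENCODE M21 annotation, all 8 genes are protein coding. Among the enzymes, Alox5 lies on chromosome 6 from 116410077 to 116461178 on the minus strand, Alox5ap on chromosome 5 from 149264767 to 149288153 on the plus strand, and Hpgds on chromosome 6 from 65117293 to 65144908 on the minus strand. Among the prostanoid receptors, Ptger4 lies on chromosome 15 from 5206661 to 5244187 on the minus strand, Ptgir on chromosome 7 from 16906490 to 16910905 on the plus strand, and Ptgdr2 on chromosome 19 from 10937160 to 10942511 on the plus strand. Cysltr1 lies on chromosome X from 106574346 to 106603679 on the minus strand, and Gpr132 on chromosome 12 from 112850873 to 112868228 on the minus strand.

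Promoter sequences were found in the RefSeq table for 6 of the 8 genes, not for Alox5ap and Cysltr1. The stretches before the start sites of Alox5, Ptgir and Gpr132 are shown because the levels of these 3 genes differed between groups of libraries. They are written 5′ to 3′ along the gene, on mm10 (GRCm38), with the GC box GGGCGG in capitals. Alox5 is chr6:116461179-116461428 on the minus strand, Ptgir is chr7:16906240-16906489 on the plus strand, and Gpr132 is chr12:112860953-112861166 on the minus strand. The Gpr132 stretch is 214 bases long, because 36 bases that GENCODE places in an exon were left out, and it lies within the span of a longer transcript of that gene.
Alox5 promoter: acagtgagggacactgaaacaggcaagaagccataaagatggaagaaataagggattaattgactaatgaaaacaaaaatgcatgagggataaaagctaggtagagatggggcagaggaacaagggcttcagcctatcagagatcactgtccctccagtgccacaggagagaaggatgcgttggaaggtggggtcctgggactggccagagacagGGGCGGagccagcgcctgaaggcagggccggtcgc
Ptgir promoter: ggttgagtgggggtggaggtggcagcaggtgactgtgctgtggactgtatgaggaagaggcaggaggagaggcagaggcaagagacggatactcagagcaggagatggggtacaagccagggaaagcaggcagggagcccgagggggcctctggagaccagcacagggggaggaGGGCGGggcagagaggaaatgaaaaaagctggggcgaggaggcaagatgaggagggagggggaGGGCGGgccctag
Gpr132 promoter: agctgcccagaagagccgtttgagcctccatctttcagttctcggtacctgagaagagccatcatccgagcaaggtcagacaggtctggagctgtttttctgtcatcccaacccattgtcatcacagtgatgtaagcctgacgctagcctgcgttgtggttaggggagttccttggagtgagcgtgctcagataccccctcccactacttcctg
The Alox5 stretch held 1 GC box, 35 bases before the start, and the Ptgir stretch held 2, at 76 and 13 bases before it, whereas the Gpr132 stretch held 0. On either strand, a GC box was present in 32.7% of the 32851 mouse promoters of 250 bases searched in the same way. The AP-1 site TGACTCA (4.46% of promoters), the cyclic AMP response element TGACGTCA (1.55%) and the GATA site AGATAA (9.99%) were found in 0 of the 6 promoters of these genes. For each gene the search covered the 250 bases before the start, exon bases included. GENCODE places the last 178 of these bases for Hpgds, and the last 36 for Gpr132, in an exon. A match is a description of the letters, and its absence says only that they are not in this window.

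The libraries held between 68077 and 122250 counts and between 7189 and 8793 detected genes, and the tests covered the 1916 genes left by a filter on low counts. Levels are given as normalised CPM, counts scaled to library size with TMM factors. A count of 1 was worth between 8.42 and 14.9 CPM depending on the library, so that levels near 100 CPM rest on about 10 counts. Ptprc, the targeted gene, averaged 142 ± 83.3, 93.0 ± 48.5 and 165 ± 59.7 CPM in CD45 KO mature, immature and lung ILC2, against 418 ± 148, 389 ± 65.8 and 579 ± 43.7 CPM in their controls (SD, n = 3 each). The library labelled mature CD45 KO replicate 1 stood apart, with 238 CPM of Ptprc against 101 and 88.0 CPM in the other CD45 KO libraries of that population, next to the lowest mature control at 253 CPM. Lung CD45 KO replicate 3, at 229 CPM of Ptprc against 153 and 112 CPM in the other lung CD45 KO libraries, stood apart likewise but below all lung controls, and the part of either library's Ptprc level in the results was tested only by leaving the library out. Mature CD45 KO replicate 1 also differed from its group across genes. Its chi-square per degree of freedom was 2.55 against replicate 2 and 2.74 against replicate 3. Replicates 2 and 3 gave 1.10 against each other, and pairs within the other groups gave at most 1.67. The 14 ILC2 markers were all detected at levels that could be tested and summed to between 12194 and 15559 CPM in lung libraries and between 7300 and 9666 CPM in marrow libraries. Lung CD45 KO replicate 1 carried 292 CPM of the 12 macrophage markers, with Csf1r at 0, and 167 CPM of the 8 eosinophil markers, with Epx and Prg2 at 0, where the other lung libraries carried at most 13.5 and 0 CPM. Over the lung libraries the macrophage counts were led by Lyz2 (8), Chil3 (7), Marco (2) and Cd68 (2). The eosinophil counts were those of Siglecf (3), Ear1 (4) and Ear2 (5), all in this library. From which cell type these counts came was not tested. Mature control replicate 1 carried 2697 CPM of the 9 neutrophil markers, against at most 167 CPM in any other library. Xist, a transcript of the inactive X chromosome, had 52 to 105 counts in every lung library and 0 in every marrow library, and the Y-linked genes Ddx3y, Eif2s3y, Kdm5d and Uty had 0 counts in lung and 10 to 32 in marrow. Every contrast of lung with marrow below, the difference of CD45 effects included, is therefore also a contrast between female-pattern and male-pattern libraries, and tissue, sex and tissue preparation cannot be told apart.

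Of the 8 genes, 5 passed the filter on low counts (Alox5, Ptger4, Ptgir, Cysltr1 and Gpr132), 2 had counts below it (Alox5ap and Hpgds), and Ptgdr2 had 0 counts in all 18 libraries. In control mice Alox5 and Cysltr1 were lower, and Ptgir and Gpr132 higher, in lung than in marrow ILC2. With CD45 lost, Alox5 was higher in lung ILC2, and the Gpr132 response to the loss differed between lung and marrow.

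**Figure D1:**
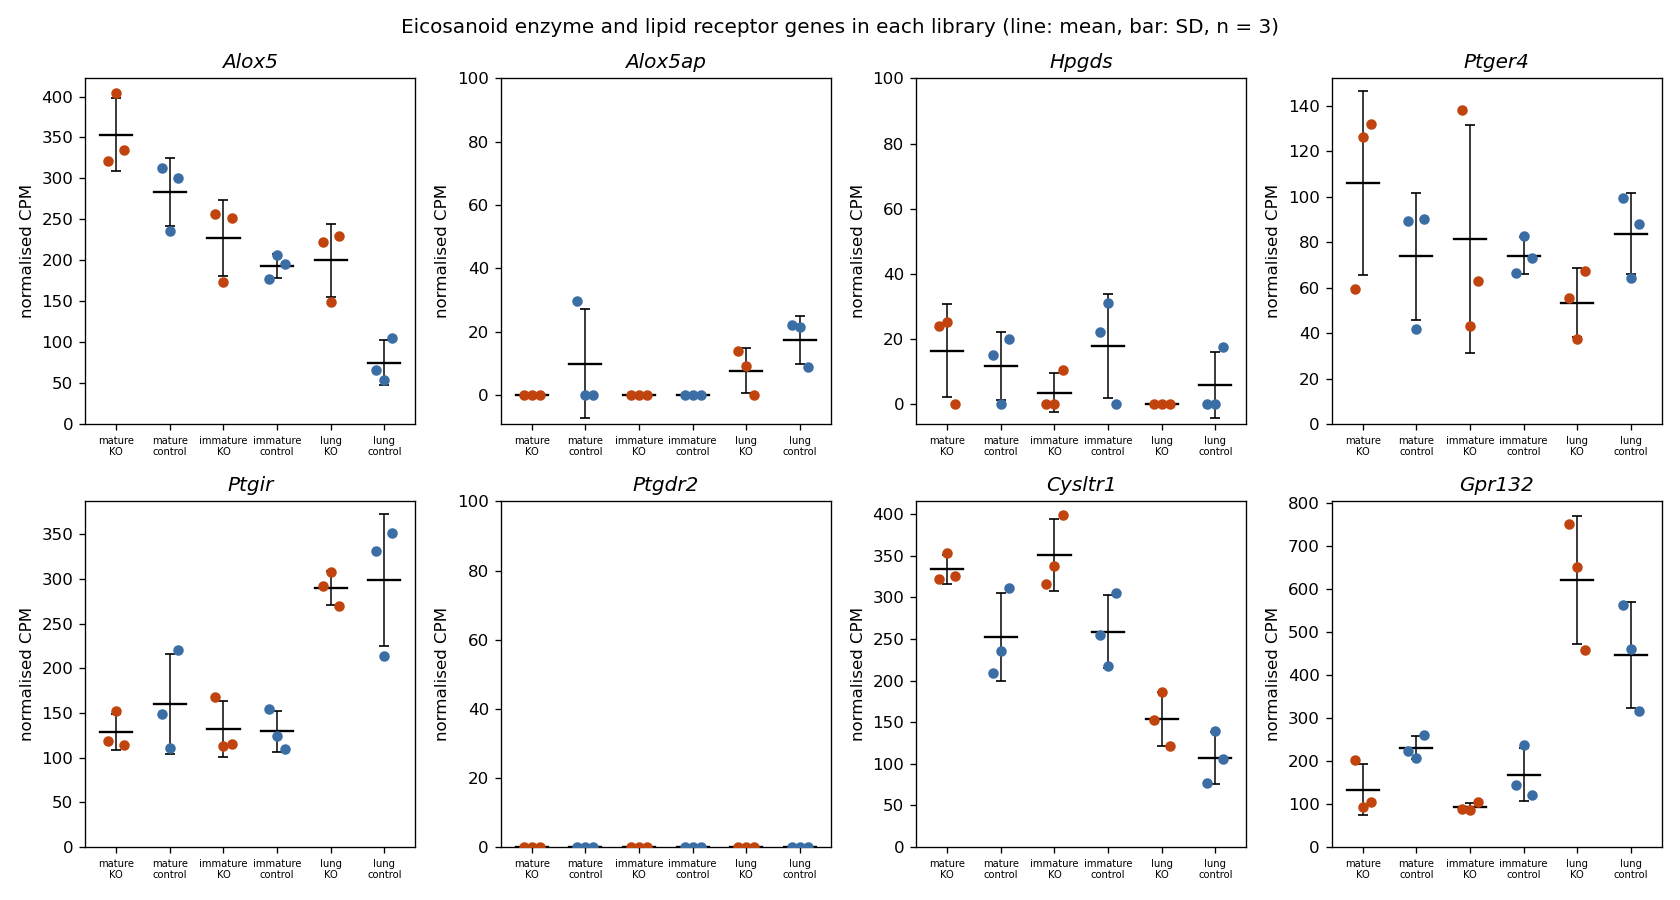
Normalised CPM (vertical axes, each on its own scale) of the 8 genes in every library, with the 6 groups along the horizontal axes (orange, CD45 KO; blue, control); lines are means and bars SDs of 3 libraries. The Alox5 points of lung control lie at or below 106 CPM, under every other group, Gpr132 and Ptgir are highest in the 6 lung libraries except for 1 mature control library of Ptgir at 221 CPM, and Ptgdr2 is at 0 throughout.

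Alox5, the enzyme that converts arachidonic acid into leukotriene A4, was detected in every library. In lung ILC2 it stood at 223, 149 and 229 CPM in the CD45 KO libraries, against 66.1, 53.5 and 106 CPM in the control libraries. All 3 CD45 KO libraries were above all 3 controls. The means were 200.3 ± 44.6 CPM in CD45 KO and 75.0 ± 27.1 CPM in control (SD, n = 3 each), a 2.49-fold increase (log2 change 1.32 ± 0.35 SE, 95% interval 0.63 to 2.01, adjusted p = 0.0189, quasi-likelihood test of edgeR, Benjamini-Hochberg adjusted). Fewer cells expressing a gene and less of its RNA per cell cannot be told apart in these bulk libraries. The counts behind these levels were 49 over the CD45 KO libraries and 23 over the controls. The call rested on several libraries: without lung control replicate 1 or 2 or lung CD45 KO replicate 1 or 3 the change lay between 1.15 and 1.26 with an adjusted p of 0.0786, 0.117, 0.0776 and 0.0893 in that order. Lung CD45 KO replicate 1, which carried the macrophage and eosinophil markers, held 223 CPM of Alox5. Replicate 2, with 0 CPM of either marker set, held 149 CPM. Replicate 3, with 13.5 CPM of macrophage markers and 0 CPM of eosinophil markers, held 229 CPM. The part of macrophage and eosinophil RNA in these levels was not tested beyond leaving replicate 1 out.

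In the marrow the Alox5 difference between genotypes was smaller. Mature ILC2 had 322, 404 and 334 CPM in CD45 KO libraries and 313, 236 and 301 CPM in controls. The lowest CD45 KO library was just above the highest control, and the change of 0.32 ± 0.23 failed the test (adjusted p = 0.717). That CD45 KO library is the one that stood apart in Ptprc, and that control library carried the neutrophil markers. Their part in these Alox5 levels was tested only by leaving out each library, where the change lay between 0.20 and 0.39 and did not pass. Immature ILC2 had 256, 173 and 252 CPM in CD45 KO libraries and 177, 207 and 195 CPM in controls, and these groups overlapped (0.22 ± 0.27, adjusted p = 0.819). The lung response exceeded the mean marrow response by 1.05 ± 0.39 on the log2 scale, with a 95% interval of 0.27 to 1.83, but this difference did not pass (adjusted p = 0.178). A lung effect that passed and marrow effects that did not are therefore not shown to differ.

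Alox5ap, the membrane protein that presents arachidonic acid to the 5-lipoxygenase, was barely sampled, with 9 counts in 6 libraries. In lung it had 1, 1 and 0 counts in CD45 KO libraries and 2, 2 and 1 counts in controls. In marrow the only counts were 2 in mature control replicate 1, the library that also carried the neutrophil markers, and the other 11 marrow libraries had 0. Pooled, this came to 12.7 CPM in lung (95% Poisson interval 5.10 to 26.2) and 1.76 CPM in marrow (0.213 to 6.36), intervals that cover counting error only. No fold or test is given at these counts, and the part of neutrophil RNA in the marrow counts was not tested.

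Hpgds, the synthase that would make prostaglandin D2 in blood cells, had 16 counts in 8 libraries. It had 14 counts over the 12 marrow libraries, from 0 to 3 in each, and 2 counts over the 6 lung libraries, both in lung control replicate 3. Lung ILC2 pooled to 3.63 CPM (95% Poisson interval 0.439 to 13.1) and marrow ILC2 to 12.3 CPM (6.73 to 20.7). The intervals overlap, and a difference was not detectable at this depth. By genotype the counts were 6 over the 9 CD45 KO libraries and 10 over the 9 controls. The 12 mast cell and basophil markers, which label cells known for Hpgds, included 8 at 0 in every library and summed to at most 63.0 CPM in any library.

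Ptgdr2, the prostaglandin D2 receptor widely used to mark ILC2, had 0 counts in every library. Over the 18 libraries together this allows a level of up to 1.78 CPM (3 counts), and within a group up to between 9.48 and 12.6 CPM, for counting error only. The oligo-dT primed libraries sample the 3′ ends of transcripts, and whether the annotation used for counting covers the 3′ end of this gene is unknown here. The 0 therefore limits the counts assigned to the gene rather than its expression.

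Ptger4, the EP4 receptor for prostaglandin E2, was present in every library at 3 to 15 counts. In lung ILC2 it had 55.6, 37.2 and 67.5 CPM in CD45 KO libraries and 99.2, 64.2 and 87.9 CPM in controls, and these groups overlapped. Mature ILC2 had 59.6, 126 and 132 CPM in CD45 KO and 89.4, 41.6 and 90.2 CPM in control libraries. Immature ILC2 had 138, 43.3 and 63.0 CPM in CD45 KO and 66.3, 82.7 and 73.2 CPM in control libraries, so that the spread within the CD45 KO group was wider than the controls' range. None of the 3 changes passed: lung gave -0.69 ± 0.52 (adjusted p = 0.61), mature 0.54 ± 0.45 (0.78) and immature 0.11 ± 0.47 (0.964). The lung interval of -1.72 to 0.34 shows how little these counts constrain a change. Ptger4 passed the filter on low counts only through mature CD45 KO replicates 2 and 3 and immature CD45 KO replicate 1. Its marrow changes are therefore a description only.

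Ptgir, the prostacyclin receptor, did not move detectably with CD45. Lung ILC2 had 292, 307 and 269.9 CPM in CD45 KO libraries and 331, 214 and 352 CPM in controls. The CD45 KO libraries fell inside the controls' range, and the change was -0.05 ± 0.24 with a 95% interval of -0.53 to 0.43 (adjusted p = 0.967). Mature ILC2 had 119, 152 and 114 CPM in CD45 KO and 149, 111 and 221 CPM in control libraries (-0.36 ± 0.33, adjusted p = 0.803). Immature ILC2 had 168, 112 and 116 CPM in CD45 KO and 155, 124 and 109.8 CPM in control libraries (0.01 ± 0.33, adjusted p = 0.998).

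Cysltr1, the receptor for cysteinyl leukotrienes, was above its controls in mean level in each CD45 KO population without passing in any. In mature ILC2 the CD45 KO libraries had 322, 354 and 326 CPM and the controls 209, 236 and 311 CPM. In immature ILC2 the CD45 KO libraries had 315, 337 and 399 CPM and the controls 254, 217 and 305 CPM. In both marrow populations every CD45 KO library was above every control. In lung ILC2 the CD45 KO libraries had 153, 186 and 121 CPM and the controls 77.2, 139 and 106 CPM, and these groups overlapped. The log2 changes were 0.37 ± 0.24 in mature (adjusted p = 0.674), 0.44 ± 0.23 in immature (0.422) and 0.55 ± 0.34 in lung ILC2 (0.507). Averaged over the marrow populations, a contrast added after the data were seen, the change was 0.41 ± 0.17 with a 95% interval of 0.08 to 0.74 (adjusted p = 0.173).

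Gpr132, whose receptor has been reported to respond to lysolipids and oxidised fatty acids, differed between the tissues in how it stood to its controls with CD45 lost. In lung ILC2 it had 751, 651 and 459 CPM in CD45 KO libraries and 562, 459.9 and 317 CPM in controls. The lowest CD45 KO library fell among the controls, and the change of 0.50 ± 0.20 failed the test (adjusted p = 0.204). Mature ILC2 had 203, 92.7 and 106 CPM in CD45 KO libraries and 224, 208 and 261 CPM in controls. Immature ILC2 had 88.7, 86.5 and 105 CPM in CD45 KO libraries and 144, 238 and 122 CPM in controls. In both marrow populations every CD45 KO library was below every control, with changes of -0.87 ± 0.32 in mature (adjusted p = 0.32) and -0.87 ± 0.35 in immature ILC2 (0.25), neither of which passed. Averaged over the marrow populations, in the contrast added after the data were seen, Gpr132 fell by 0.87 ± 0.24 on the log2 scale and passed (adjusted p = 0.0224).

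The difference of the Gpr132 responses was itself tested, and the lung response exceeded the mean marrow response by 1.37 ± 0.31 on the log2 scale (95% interval 0.75 to 1.995, adjusted p = 0.0112). The mature CD45 KO library that stood apart had the highest Gpr132 of its group, at 203 CPM. Without it the change in mature ILC2 was -1.22 (adjusted p = 0.0893), the marrow average -1.04 (0.00403) and the difference 1.57 (0.000991). The difference lost its call without lung control replicate 3 (1.16, adjusted p = 0.0523) and without lung CD45 KO replicate 1, the library with macrophage and eosinophil markers (1.26, 0.0538). The marrow average lost it without mature control replicate 3, mature CD45 KO replicate 2 or 3, or immature control replicate 2, where the adjusted p lay between 0.0553 and 0.165.

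For the 5 genes that could be tested, the counts of calls were read against those over all genes. In mature ILC2 0 of 5 passed, against 0.261% of all 1916 tested genes, with 1 gene of 5 and 173 genes of all at an unadjusted p under 0.05 by edgeR's quasi-likelihood test. In immature ILC2 0 of 5 passed, against 1.67% of all tested genes, with 1 of 5 and 236 of all at an unadjusted p under 0.05. In lung ILC2 1 of 5 passed, against 2.51% of all tested genes, namely Alox5. The genes were chosen with earlier results of these data known, this change among them. The counts and medians given here are therefore a description only. For the difference of effects 1 of 5 passed, against 1.25%, namely Gpr132, and for the marrow average 1 of 5, against 2.97%, again Gpr132. The median log2 change of the 5 genes was 0.32 in the mature, 0.11 in the immature and 0.50 in the lung population, beside medians of 0.00, -0.01 and 0.01 over all tested genes. The immature median is the value of Ptger4. That gene passed the filter on low counts only through marrow CD45 KO libraries, so its marrow changes carry no weight in these medians. DESeq2's Wald test called 0 of the 5 in each of these comparisons.

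**Figure D2:**
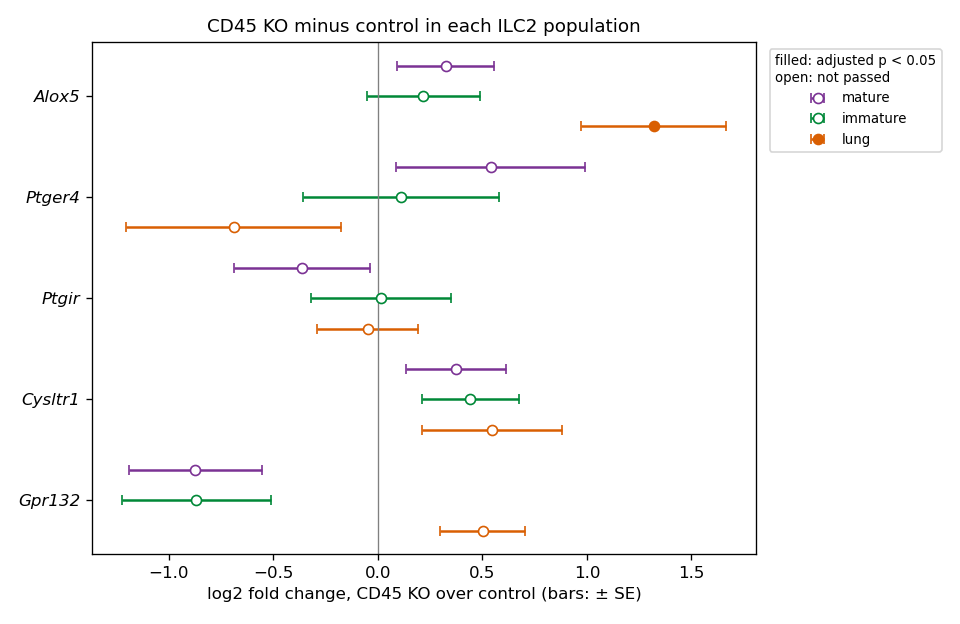
Log2 fold change of CD45 KO over control (horizontal axis) with its SE for the 5 testable genes in mature, immature and lung ILC2 (colours); filled points passed at an adjusted p under 0.05. Alox5 in lung, at 1.32, is the filled point, and the Gpr132 points of the marrow populations, at -0.87, lie opposite to its lung point at 0.50.

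The tissue comparison set lung ILC2 against the mean of mature and immature marrow ILC2 within each genotype. In CD45 KO mice 3 of the 5 genes passed, against 28.1% of all tested genes, and in control mice 4 of 5, against 31.1%. About 3 in 10 tested genes thus differed between the tissues, and the count of these genes is read beside that share. In both genotypes Ptgir and Gpr132 were higher and Cysltr1 was lower in lung, and Alox5 was lower in lung in control mice.

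Ptgir was at 214 to 352 CPM in the 6 lung libraries (median 299.6) and at 109.8 to 221 CPM in the 12 marrow libraries (median 122). The lowest lung library, a control, was below the highest marrow library, also a control, so the tissues overlapped by that pair. Lung exceeded marrow by 1.15 ± 0.24 on the log2 scale in CD45 KO mice (adjusted p = 6.61e-05) and by 1.03 ± 0.23 in control mice (0.000254). Gpr132 was at 317 to 751 CPM in lung libraries (median 511) and 86.5 to 261 CPM in marrow libraries (median 133), with no overlap. Its lung level was 5.67 times the marrow level in CD45 KO mice (2.50 ± 0.22, adjusted p = 3.00e-17) and 2.19 times in control mice (1.13 ± 0.21, 9.64e-06). The gap between these folds is the difference of CD45 effects given above.

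Cysltr1 was at 77.2 to 186 CPM in lung libraries (median 130.2) and 209 to 399 CPM in marrow libraries (median 313), with no overlap. It was lower in lung, with log2 changes of -1.11 ± 0.24 in CD45 KO mice (adjusted p = 6.69e-05) and -1.25 ± 0.26 in control mice (7.25e-05). Cysltr1 is X-linked, and for it too the sex pattern of the libraries and their tissue cannot be told apart. Alox5 was at 53.5 to 229 CPM in lung libraries (median 127) and 173 to 404 CPM in marrow libraries (median 254). In control mice it was 3.01-fold lower in lung (-1.59 ± 0.29, adjusted p = 6.30e-06) and the groups did not overlap. In CD45 KO mice the lung libraries overlapped those of marrow and the change did not pass (-0.54 ± 0.23, adjusted p = 0.0754). Ptger4 did not pass in CD45 KO (-0.85 ± 0.45, adjusted p = 0.159) or control mice (0.16 ± 0.41, 0.787). The neutrophil markers were at most 13.9 CPM in lung and reached 2697 CPM in mature control replicate 1. Without that library the control changes were -1.55 for Alox5, -1.30 for Cysltr1, 1.002 for Ptgir and 1.12 for Gpr132, and all 4 still passed. The abundant RNA entry Rn4.5s took 0.867% to 1.78% of counts in lung libraries and 4.17% to 9.90% in marrow libraries, and the same genes passed in each genotype in a fit without it and without Rn45s, which was added after the data were seen.

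**Figure D3:**
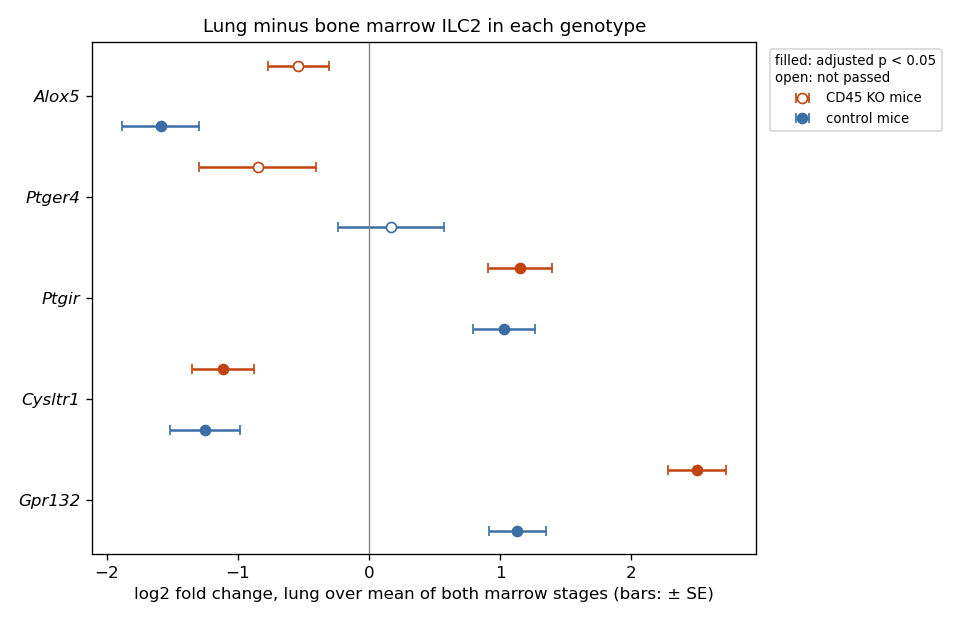
Log2 fold change of lung over the mean of the marrow populations (horizontal axis) with its SE for the 5 testable genes in CD45 KO mice (orange) and control mice (blue); filled points passed at an adjusted p under 0.05. Gpr132 lies at 2.50 in CD45 KO and 1.13 in control mice, Ptgir near 1 in both, and Cysltr1 and Alox5 on the lower side.

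Between the marrow stages 0 of the 5 genes passed in either genotype. In CD45 KO mice 0.678% of all tested genes passed between mature and immature ILC2, and in control mice 0.0522%. Alox5 was the gene of the 5 at an unadjusted p under 0.05 in each genotype. Mature CD45 KO libraries had 322 to 404 CPM against 173 to 256 CPM in immature CD45 KO libraries (0.66 ± 0.23, adjusted p = 0.273), and mature controls had 236 to 313 CPM against 177 to 207 CPM in immature controls (0.55 ± 0.27, adjusted p = 0.886). The stages did not overlap in either genotype, but neither change passed. Cysltr1 differed by -0.06 ± 0.21 in CD45 KO mice and 0.01 ± 0.26 in control mice, with 95% intervals of -0.48 to 0.36 and -0.50 to 0.52. Of all tested genes, 154 in CD45 KO mice and 103 in control mice had an unadjusted p under 0.05.

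The order of mean levels across the 6 groups differed by gene. For Alox5 it ran mature CD45 KO, mature control, immature CD45 KO, lung CD45 KO, immature control and lung control, and only the first pair and the last pair of neighbours had ranges that did not overlap. For Gpr132 it ran lung CD45 KO, lung control, mature control, immature control, mature CD45 KO and immature CD45 KO, with a gap between lung control and mature control. For Ptgir both lung groups came first, with a gap between lung CD45 KO and mature control. For Cysltr1 immature and mature CD45 KO came first, then immature and mature control, then lung CD45 KO and lung control, with gaps after mature CD45 KO and after mature control. For Ptger4 all neighbouring groups overlapped.

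Across the 18 libraries, which share depth and tissue differences, 4 of the 5 tested genes fell into opposed patterns of log2 CPM, Ptger4 being the exception (Pearson r, n = 18, as a description). Ptgir and Gpr132 had an r of 0.80 with each other, and Alox5 and Cysltr1 0.72, whereas Cysltr1 had an r of -0.82 with Gpr132 and -0.81 with Ptgir. The r of Ptger4 with the other 4 lay between -0.35 and 0.24. Within the 6 lung libraries it was -0.97 with Cysltr1, -0.56 with Gpr132, -0.46 with Alox5 and 0.30 with Ptgir. Within the 12 marrow libraries it was 0.14, -0.24, 0.59 and 0.47 in that order. For the 4 pairs named first, the r within each tissue was closer to 0 than over the 18 libraries. Ptgir and Gpr132 had an r of 0.26 within the 12 marrow libraries and -0.09 within the 6 lung libraries, and Alox5 and Cysltr1 had 0.23 and 0.44. Cysltr1 had an r with Gpr132 of -0.68 within marrow but 0.44 within lung, and with Ptgir of -0.06 and -0.37. Among 1871 other tested genes, the closest in pattern to Gpr132 were Kit, a growth factor receptor (r = 0.94), Nfkbia, an inhibitor of NF-kB (0.91), and Hes1, a transcriptional repressor (0.91). Within marrow the r with Gpr132 was 0.81 for Kit, 0.74 for Nfkbia and 0.78 for Hes1, whereas within the 6 lung libraries it was 0.33, 0.27 and -0.03 in that order. The closest to Ptgir were Fam110a (0.94), Dusp10, a phosphatase acting on MAP kinases (0.93), and Nabp1, a single-stranded DNA binding protein (0.93). The r of Fam110a with Ptgir was 0.89 within marrow and 0.03 within lung. That of Dusp10 was 0.59 and 0.81, and that of Nabp1 0.63 and 0.63. The closest to Cysltr1 were Id2, a transcriptional regulator needed for innate lymphoid cells (0.92), Fam111a (0.91) and the interferon-induced GTPase Tgtp1 (0.90), whose counts can be shared with its near-identical copy Tgtp2. The closest to Alox5 were Arl5a, a small GTPase (0.90), and Wdr89 (0.90), and those to Ptger4 were weaker: Psma5 (0.67), Mrpl18 (0.64) and Ppp2r5a (0.58). Within marrow and lung, the r with Alox5 was 0.77 and 0.87 for Arl5a and 0.83 and 0.88 for Wdr89. With Cysltr1 it was 0.65 and 0.54 for Id2, 0.72 and 0.61 for Fam111a, and 0.55 and 0.48 for Tgtp1. With Ptger4 it was 0.69 and 0.59 for Psma5, 0.68 and 0.62 for Mrpl18, and 0.72 and -0.05 for Ppp2r5a.

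The surrounding pathway was sampled unevenly. Of 30 further synthesis genes in the table, 9 had 0 counts in all libraries and 5 could be tested (Pla2g16, Ptgs2, Ptges3, Lta4h and Cotl1). Of 12 further prostanoid and leukotriene receptors 5 had 0 counts, and only Ltb4r1, the leukotriene B4 receptor, could be tested. Around Alox5, leukotriene A4 hydrolase (Lta4h), which makes leukotriene B4, had 139 counts over the 18 libraries, whereas leukotriene C4 synthase (Ltc4s), which makes the ligands of the receptor encoded by Cysltr1, had 2. Mgst2, a microsomal enzyme that can also make leukotriene C4, had 28 counts. Of the cyclooxygenases, Ptgs1 had 1 count and Ptgs2 had 66. The second cysteinyl leukotriene receptor, Cysltr2, had 38 counts and the EP2 receptor Ptger2 had 26. As for Ptgdr2, whether the annotation used for counting covers the 3′ ends of these genes is unknown here. The counts therefore do not compare the expression of these genes with each other.

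With CD45 lost, 0 of the 5 synthesis genes, of the 5 other lipid-sensing receptors that could be tested (Lpar6, Gpr65, Gpr183, P2ry10 and Ffar2) and of the 11 cyclic AMP signalling genes passed in mature, immature or lung ILC2. Ptgs2 had no counts in the marrow. Acot7, a thioesterase of long acyl-CoA and the only testable gene of the transport and inactivation list, did not pass either, nor did Ltb4r1. At an unadjusted p under 0.05 edgeR's quasi-likelihood test gave 3 of these 23 genes in mature (13.04%, against 9.03% of all tested genes), 1 in immature (4.35%, against 12.3%) and 3 in lung ILC2 (13.04%, against 14.5%). DESeq2's Wald test called 0 of the 23 in each. In the marrow average added after the data were seen, Arrb2, a beta-arrestin that uncouples receptors from G proteins, was lower (-0.77 ± 0.22, adjusted p = 0.0284), whereas DESeq2's Wald test did not call it (adjusted p = 0.223). Crem, a cyclic AMP responsive transcription factor, had 431, 428 and 418 CPM in lung CD45 KO libraries and 287, 225 and 229 CPM in lung controls. Those groups did not overlap, but the change did not pass (0.79 ± 0.24, adjusted p = 0.0588).

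Between tissues 9 of the 23 pathway genes passed in CD45 KO mice, against 28.1% of all tested genes, and 6 of 23 in control mice, against 31.1%. Of these, 8 were higher and 1 lower in lung in CD45 KO mice, and 6 were higher in control mice. Over all tested genes 319 were higher and 219 lower in CD45 KO mice, and 338 were higher and 257 lower in control mice. The counts of calls below, list by list, are small and are read beside those shares. Ptgs2, Crem and Acot7 passed the filter on low counts only through lung libraries, Pde3b chiefly so, and Lta4h only through marrow libraries. Being high in that tissue was what made them testable, so their calls and p-values between tissues are a description only. Of the 5 synthesis genes, 2 were higher and 1 lower in CD45 KO mice, and 3 were higher in control mice. Ptgs2, the inducible cyclooxygenase, had 111, 112 and 148 CPM in lung CD45 KO libraries and 132, 193 and 44.0 CPM in lung controls, against 0 counts in all 12 marrow libraries. Pooled lung levels were 25.6 times in CD45 KO mice, and 19.9 times in control mice, the level of 3 counts over the marrow libraries of a genotype. These folds leave out the counting error and the spread of the lung levels. Cotl1, a protein that in human cells binds and stabilises 5-lipoxygenase, was higher in lung by 2.03 ± 0.18 in CD45 KO mice (adjusted p = 1.25e-17) and 2.34 ± 0.20 in control mice (1.94e-17). Lta4h was lower in lung in CD45 KO mice (-1.25 ± 0.46, adjusted p = 0.0342), a call that DESeq2's Wald test did not make (adjusted p = 0.115). Pla2g16, a phospholipase, was higher in lung in control mice (0.95 ± 0.28, adjusted p = 0.00517). Ptges3, a co-chaperone described as a prostaglandin E synthase, did not pass and averaged 269 CPM over all libraries.

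Of the 5 other lipid-sensing receptors 2 were higher in lung in each genotype, near those shares of all tested genes. The lysophosphatidylserine receptor gene P2ry10 was higher by 1.69 ± 0.21 in CD45 KO mice (adjusted p = 1.07e-10) and 1.43 ± 0.23 in control mice (4.13e-07). Gpr65, an acid-sensing receptor gene, was higher by 1.26 ± 0.19 (adjusted p = 6.69e-08) and 0.75 ± 0.18 (0.000717) in those genotypes. Acot7 was higher in lung in CD45 KO mice (1.41 ± 0.37, adjusted p = 0.00133). Of the 11 cyclic AMP genes 3 were higher in lung in CD45 KO mice and 1 in control mice, no more than the 28.1% and 31.1% of all tested genes that passed. Crem had 108 counts in lung and 3 in marrow CD45 KO libraries (adjusted p = 1.53e-23), and 73 in lung and 7 in marrow control libraries (adjusted p = 3.80e-14). These values are a description, since Crem passed the filter on low counts only through lung libraries. Pde3b, a cyclic AMP phosphodiesterase (1.498 ± 0.41, adjusted p = 0.00255), and Prkar1a, a regulatory subunit of protein kinase A (0.63 ± 0.20, adjusted p = 0.0121), passed in CD45 KO mice.

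**Figure D4:**
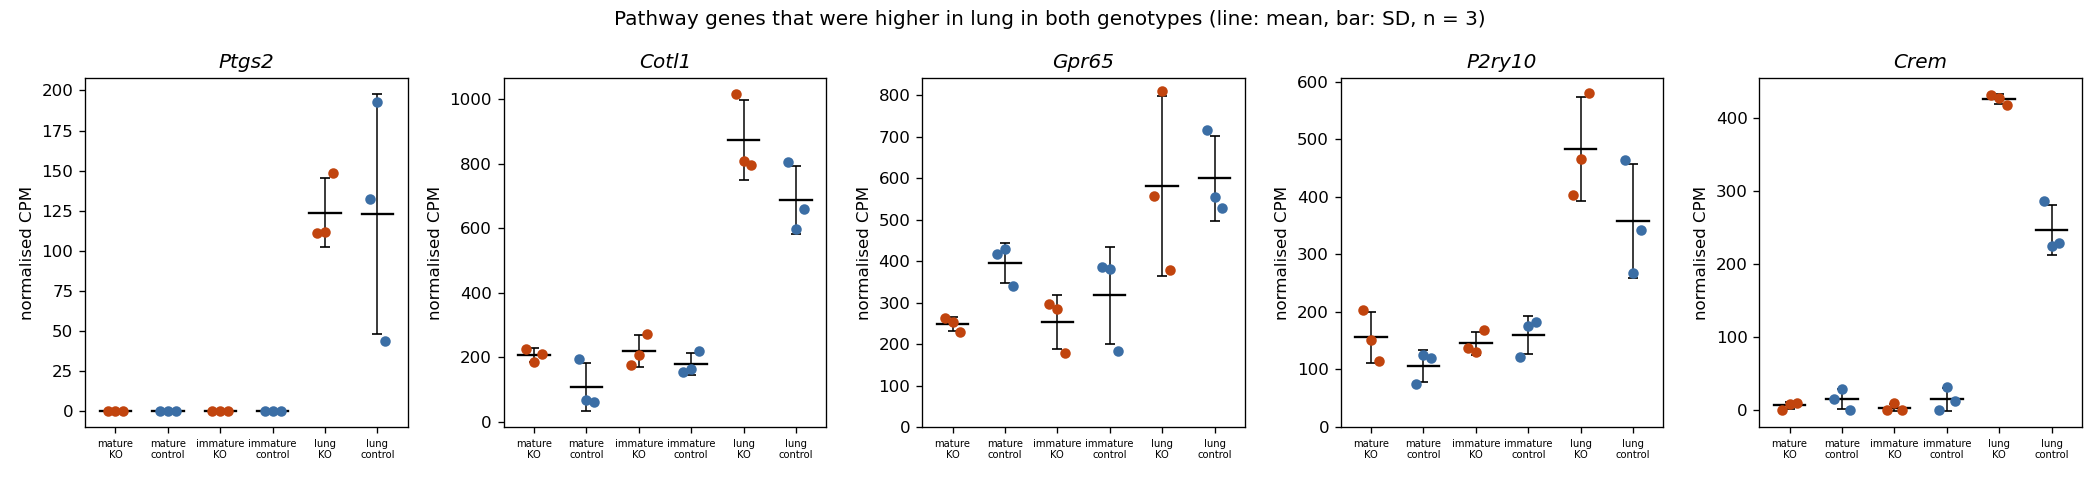
Normalised CPM (vertical axes, each on its own scale) in every library of the 5 genes from the pathway lists that were higher in lung in both genotypes, with the 6 groups along the horizontal axes (orange, CD45 KO; blue, control); lines are means and bars SDs of 3 libraries. Ptgs2 is at 0 in the 12 marrow libraries and Crem is at 418 to 431 CPM in lung CD45 KO and 225 to 287 CPM in lung control libraries. Both passed the filter on low counts only through lung libraries.

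**Figure D5:**
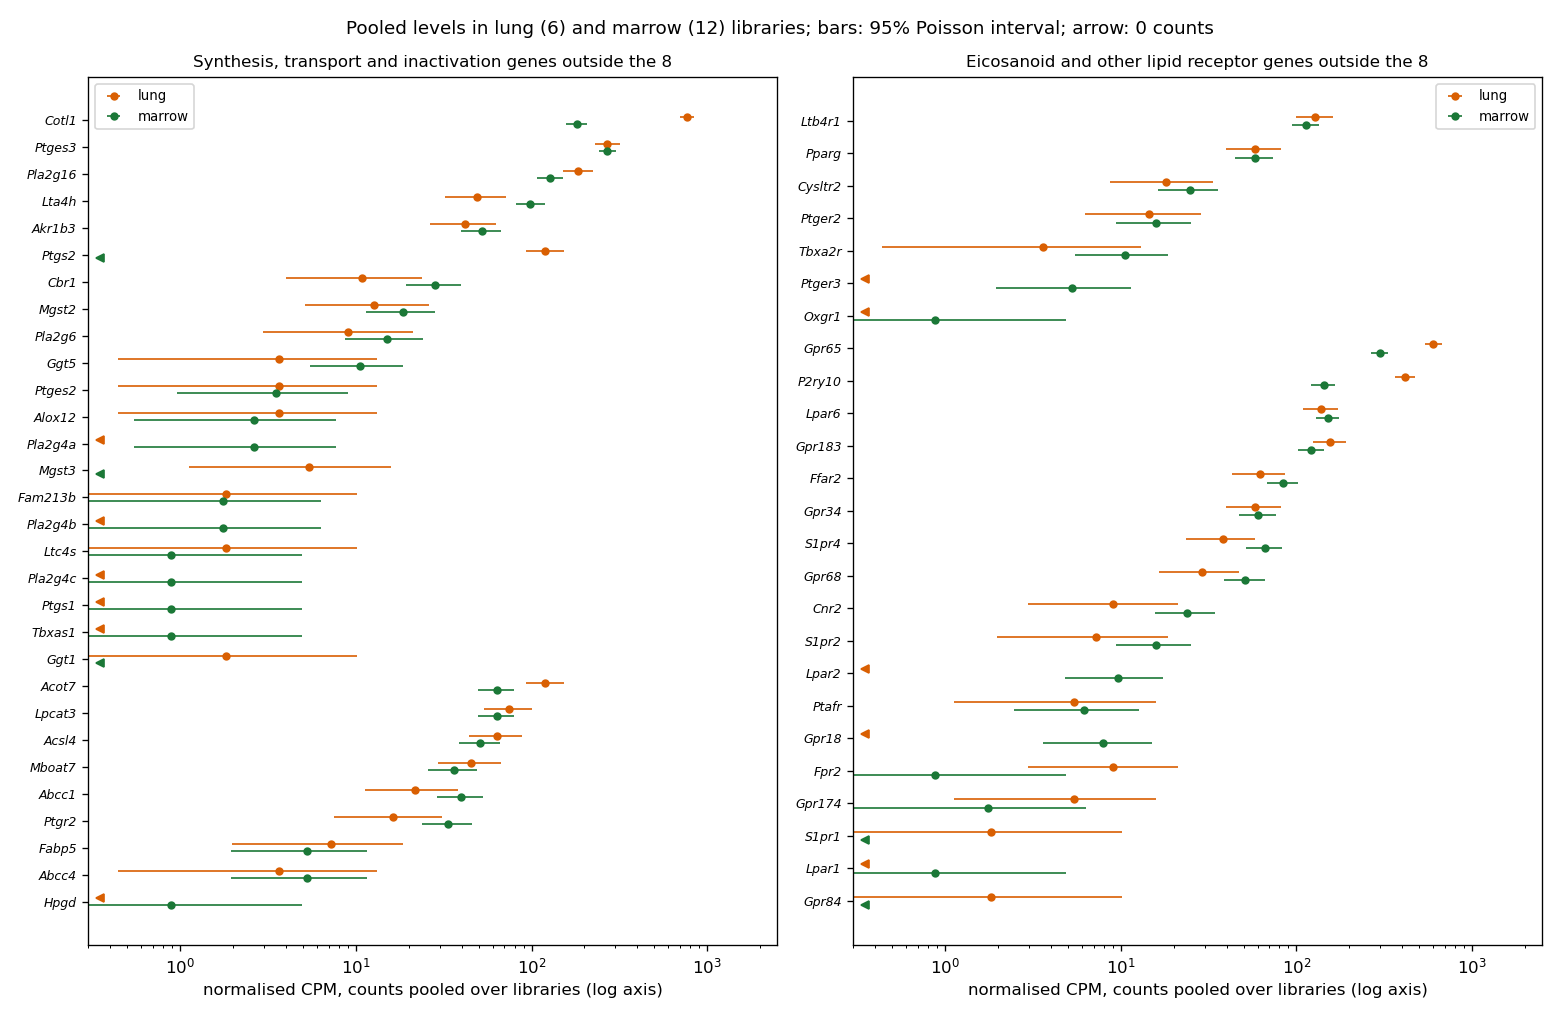
Pooled normalised CPM (horizontal log axes) with 95% Poisson intervals in the 6 lung and 12 marrow libraries for the synthesis, transport, inactivation and receptor genes outside the 8 that had counts. Arrowheads mark 0 counts, and the cyclic AMP signalling genes are not drawn. Levels compare tissues within a gene, not genes with each other, and Ptgs2, at 119.7 CPM in lung and 0 counts in marrow, is the abundant gene at 0 in a tissue.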

How the data were processed

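RNA sequencing of sorted ILC2 gave the 18 libraries. Per the labels' protocols, lysate was reverse transcribed from a barcoded oligo-dT primer, with template switching and PCR. STAR and the mm10 build are named in the submitters' processing notes. No source used here gives the counting tool, annotation, strand use or barcode collapse. The authors deposited raw counts by gene symbol with 1 column per library. ERCC spike-in entries numbered 0 in the table and were not analysed here.

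Libraries were grouped by the labels' population and genotype. TMM factors, filterByExpr by group (minimum count 10) and 6 group means over all 18 libraries were used in edgeR 4.0.16 (R 4.3.3). Contrasts were tested with edgeR's quasi-likelihood test, Benjamini-Hochberg adjusted over 1916 genes, threshold 0.05. SE is the absolute log2 change over the square root of F. CPM use TMM-scaled library sizes. For log2 CPM in correlations (limma 3.58.1 loaded with edgeR) the prior count was 2. Floors are 3 counts, and intervals are 95% exact Poisson intervals. Both cover counting error only.

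The members, gene lists and comparisons were chosen with earlier results of these data known, the lung change of Alox5 among them. Named were all 8 genes, Ptprc, up to 4 genes per pathway list and comparison that passed, up to 4 of those that passed nowhere, and the 3 genes closest to each testable member by Pearson r, predicted gene models left out (1 of the closest genes is not reported here). Csf1r, Epx and Prg2 were named for being at 0, and Ltc4s, Mgst2, Ptgs1, Cysltr2 and Ptger2 for their roles, after their values were seen. Lyz2, Chil3, Marco, Cd68, Siglecf, Ear1 and Ear2 were named for their counts in lung libraries, likewise after these were seen. Alternatives were DESeq2 size factors, no filter, the Wald test of DESeq2 1.42.0 without independent filtering, a filter asking for 10 counts in 3 libraries, only the libraries of a contrast, a replicate block, and the omission of each library. Added after the data were seen were the marrow average and a fit without Rn45s and Rn4.5s. On simulated data with 200 changed genes, 2-fold and 4-fold changes were recovered for 61.1% of 95 and 96.7% of 90 genes in the lung CD45 comparison, with 1693 genes tested. The simulation gave every gene the same dispersion and made 150 calls, against 48 in the data. Recovery in the data may therefore be lower.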

Additional observations from a re-analysis of the deposited data

Results flagged for a closer look

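The difference of CD45 KO effects on Gpr132 was set apart because 2 tissues responded differently in a direct test of the difference. The lung effect minus the mean marrow effect was 1.37 ± 0.31 on the log2 scale (adjusted p = 0.0112, edgeR's quasi-likelihood test). The call was lost with DESeq2's Wald test (1.38, adjusted p = 0.0798), without a filter on low counts (1.28, 0.0523), without lung control replicate 3 (1.16, 0.0523) and without lung CD45 KO replicate 1 (1.26, 0.0538), and it held under the other 4 settings and the other 16 omissions of a library. The effects themselves were 0.50 ± 0.20 in lung, -0.87 ± 0.32 in mature and -0.87 ± 0.35 in immature ILC2, and of the 3 lung libraries per genotype the CD45 KO ones averaged 620 ± 149 CPM and the controls 446 ± 123 CPM (SD, n = 3 each). In the marrow all 6 CD45 KO libraries lay at or below 203 CPM and the 6 control libraries between 122 and 261 CPM. Tissue and sex pattern cannot be told apart in this difference.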

How the results depend on the processing

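Of 1115 recomputed values of the 5 genes, 1074 kept direction and side of the threshold, 16 lost their call, 0 gained one and 25 changed sign, 0 of these among values that had passed. The tissue calls kept their counts under every alternative run, 3 genes in CD45 KO and 4 in control mice. Without a filter on low counts the genes called were 22 for the lung effect, 9 for the difference of effects and 4 for mature minus immature in control mice. The members called were 0 for the lung effect (Alox5 1.33, adjusted p = 0.102), 0 for the difference (Gpr132 1.28, 0.0523) and 0 for the marrow average (Gpr132 -0.76, 0.136), and Ptgir in mature minus immature CD45 KO changed sign to 0.018. In that fit the median of all genes was -0.144 for the difference and -0.134 for lung minus marrow in CD45 KO mice. By DESeq2's Wald test the genes called were 1 in mature, 6 in immature and 18 in lung, 6 for the difference, 3 for mature minus immature in CD45 KO mice and 17 for the marrow average, with 0 members in each (Alox5 in lung 1.39, 0.0787; Gpr132 difference 1.38, 0.0798; Gpr132 marrow average -0.86, 0.133). With only the libraries of a contrast the genes called were 0 in mature, 3 for mature minus immature in control mice and 7 in CD45 KO mice. The causes were not tested. With DESeq2 size factors the difference of effects had 20 genes higher and 6 lower, against 16 and 8 with TMM. With the replicate block, Ptger4 and Cysltr1 in mature minus immature control changed sign to -0.0089 and -0.0077 and no other call changed. Whether the numbers pair the libraries is unknown. Deviations from the group means had an r of -0.0888 to 0.0755 over the 45 same-numbered pairs and -0.0820 to 0.122 over the 90 others. At these low counts a pairing could leave r this small, so the values do not decide it. Leaving out 1 library each gave 3 to 12 genes in mature, 12 to 38 in immature, 29 to 94 in lung (0 to 1 member), 9 to 35 for the difference (0 to 1), 8 to 19 for mature minus immature CD45 KO and 36 to 91 for the marrow average (0 to 1). Signs changed within -0.062 to 0.36 for the Cysltr1 difference, -0.13 to 0.032 and -0.20 to 0.13 for Cysltr1 between stages in CD45 KO and control mice, -0.49 to 0.44 for Ptger4 in immature ILC2 and -0.19 to 0.27 between control stages. For Ptgir they changed within -0.27 to 0.0076 for the marrow average, -0.18 to 0.17 in immature and -0.21 to 0.11 in lung ILC2, -0.047 to 0.28 for the difference, and -0.19 to 0.18 and -0.0024 to 0.55 between stages in CD45 KO and control mice. Depth limited most what could be said of Alox5ap, Hpgds and Ptgdr2, with 9, 16 and 0 counts over the 18 libraries.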
